A study of Mus musculus with 8 samples.

Results

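The cells described here are hepatoma cells with high RNA of Slco1b2, Wif1, Spp2, Deptor, Osr1 and Enpp2, called the programme genes below. A hepatoma cell was a cell with a mean deposited value of Krt8, Afp and Alb of at least 1 and a mean of the immune genes Cd3g, Trbc2, Tyrobp and Fcer1g below 0.5. Members were the hepatoma cells in the top 15% of their cell set by the mean of the 6 programme genes that also lay below the 85th percentile of the set for the mean of the hepatocyte genes Fabp1, Apoa2, Apoa1 and Serpina1b. This gave 4485 members among 34499 hepatoma cells and 53528 cells in all. The other 30014 hepatoma cells were the main comparator.

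The cells came from tumours of Hepa1-6, an established mouse hepatoma cell line, dissociated and profiled by droplet single-cell RNA sequencing. The labels describe 4 groups, all of Hepa1-6 tumours: WT tumours with intraperitoneal PBS, WT tumours with intraperitoneal PD1 antibody, tumours of cells labelled Soat1 knockdown (KO in the titles) with PBS, and Soat1 knockdown tumours with PD1 antibody. The single table divides its cells into 6 sets by the last number of the cell name, and nothing ties the 6 sets to the 4 groups. Values are therefore given by set, with no comparison of genotype or treatment and no p-value, since cells are not replicates. The host strain and age, the number of tumours and whether the edited line was a clone are not given in the sources used here, and Soat1 itself was not analysed here.

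Hepatoma cells arise from the hepatocyte lineage and keep part of its programme of secreted plasma proteins, drug enzymes and transporters. In normal liver, Wnt and beta-catenin signalling is strongest around the central vein, where it sustains pericentral genes such as Glul and Cyp1a2. The same pathway induces its own secreted or intracellular inhibitors, among them Wif1, Notum, Nkd1 and Axin2. The 6 programme genes span several functions: Slco1b2 takes organic anions up from blood, Wif1 binds secreted Wnt proteins, Spp2 is a phosphoprotein secreted by liver, Deptor inhibits mTOR kinase, Osr1 is a zinc finger transcription factor of embryonic mesoderm, and Enpp2 (autotaxin) makes the signalling lipid lysophosphatidic acid.

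The transcripts of all 6 programme genes rank the cells, and the promoters of the 3 that were matched are shown. RefSeq promoters of GRCm38.p6 run from 250 bases before to 50 bases after the start, and the table used here held Slco1b2 (chr6:141629268-141629567), Wif1 (chr10:121033754-121034053) and Spp2 (chr1:88406760-88407059), all on the plus strand. Deptor, Osr1 and Enpp2 were not matched. Capitals mark TATAAA, or its reverse complement in Wif1.
Slco1b2: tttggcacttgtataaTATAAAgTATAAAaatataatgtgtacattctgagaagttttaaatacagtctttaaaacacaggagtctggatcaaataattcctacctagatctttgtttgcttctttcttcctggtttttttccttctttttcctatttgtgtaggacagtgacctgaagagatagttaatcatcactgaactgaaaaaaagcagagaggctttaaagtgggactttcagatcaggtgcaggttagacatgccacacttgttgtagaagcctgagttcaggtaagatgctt
Wif1: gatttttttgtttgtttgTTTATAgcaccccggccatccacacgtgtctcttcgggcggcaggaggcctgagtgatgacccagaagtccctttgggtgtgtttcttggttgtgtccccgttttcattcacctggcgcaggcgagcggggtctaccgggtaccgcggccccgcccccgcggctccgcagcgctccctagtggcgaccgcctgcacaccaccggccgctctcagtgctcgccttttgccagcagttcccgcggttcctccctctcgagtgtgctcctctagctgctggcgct
Spp2: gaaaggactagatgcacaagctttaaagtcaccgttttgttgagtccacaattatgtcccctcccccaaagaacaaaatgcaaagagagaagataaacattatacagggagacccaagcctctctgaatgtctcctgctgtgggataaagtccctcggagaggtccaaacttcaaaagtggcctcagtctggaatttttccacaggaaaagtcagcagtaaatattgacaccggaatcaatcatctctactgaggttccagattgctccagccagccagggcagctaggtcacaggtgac
Besides TATAAA, the letters CTTTGAT (TCF and LEF), GTTAATG (HNF1), CAAAGTC (HNF4), TTGCGCA (CEBP) and TGTTTAC (FOX) were searched on both strands. TATAAA was present in 2 of the 3 windows, at -234 and -227 from the start in Slco1b2, where the matches do not overlap, and at -232 in Wif1. It was present in 13.6% of 32851 promoters of the same length. The other 5 motifs were in none of the 3 windows and in 3.73%, 2.03%, 4.44%, 2.02% and 3.65% of all promoters, in the order above. A match or its lack describes these letters in these windows only.

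UMI counts could be recovered for set 1 alone, so levels in CPM, the UMIs of a gene per 1000000 UMIs, refer to set 1, and sets 2 to 6 contribute differences of mean deposited values on the natural log scale. Values below 0 occurred in every cell of sets 2 to 6 and in none of set 1, so the sets were not handled alike and their shared directions are not independent repeats. In set 1, with called doublets left out, the 959 members had a median of 23145 UMIs per cell, against 14065 in the 6268 other hepatoma cells and 2673 in 511 cells excluded by the immune genes. Cell names carry running numbers, 12741 of which recurred in more than 1 set among 22421 distinct ones, so shared barcodes could not be counted. The gates fixed high levels of Krt8, Afp and Alb in both hepatoma classes of set 1 and low levels in the immune-gated cells. Krt8 was at 1008 CPM in members, 1182 in other hepatoma cells and 56.6 in the immune-gated cells. Afp was at 3871, 5171 and 279.9, and Alb at 3715, 3460 and 227. The mean deposited value of Afp went the other way, 3.608 to 3.863 in members and 3.215 to 3.455 in other hepatoma cells over the 6 sets. In set 1 the median cell held 3536 CPM of Afp in members and 3528 in the others, and the 90th percentile was 6407 and 9680. Krt8 had a higher mean value in members in 5 of the 6 sets. Apoe (3438, 2983 and 520.2) and Ahsg (308, 548 and 65.2), liver genes that the rule did not use, were above the immune-gated cells in both hepatoma classes. The immune-gated cells had been chosen for low hepatoma genes, so this contrast is not independent of the gate. Krt18 was not analysed here.

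Members made up 12.3% to 13.5% of the hepatoma cells of a set (median 13.1%), from 466 members in set 4 to 1087 in set 3. The score, the mean of the 6 programme genes, formed a continuous range with no gap at the threshold. The threshold lay between 0.552 in set 4 and 0.977 in set 1, median members scored 0.772 to 1.18, and median other hepatoma cells scored 0.209 to 0.326. In set 1 the 100 members just inside had a median score of 0.994 and the 100 cells just outside 0.963. The bound on hepatocyte genes removed 692 of the 5177 top-scoring cells.

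**Figure D1:**
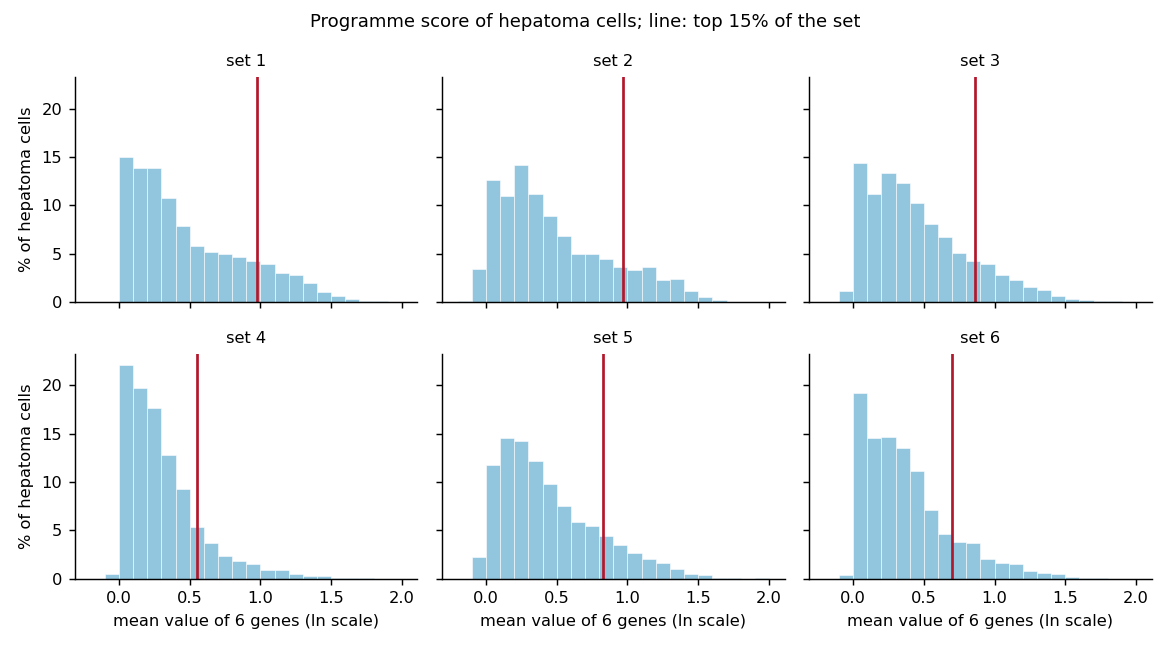
Histograms of the programme score (x axis, mean deposited value of the 6 genes, natural log scale) as a percent of hepatoma cells (y axis) in each of the 6 sets, with a line at the top 15% threshold. The scores decline without a separate peak to the right of the line, and the line sits lowest in set 4, at 0.552.

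The values in this paragraph chose the cells and are a description. Slco1b2 had mean values of 0.524 to 0.874 in members over the 6 sets (median 0.647), against 0.0601 to 0.143 (median 0.119) in other hepatoma cells. Wif1 ranged from 1.03 to 1.69 in members (median 1.49) and from 0.209 to 0.396 in the others (median 0.375). Spp2 had the highest values, 1.82 to 2.31 (median 2.17), against 0.692 to 0.993 (median 0.921). In none of these 3 genes did the ranges of the classes overlap over the sets. Deptor lay at 0.786 to 1.02 in members (median 0.926) and 0.227 to 0.350 in the others (median 0.328). Osr1 lay at 0.415 to 0.770 (median 0.690), with the others at 0.0948 to 0.189 (median 0.174). Enpp2 lay at 0.457 to 0.768 (median 0.662), with the others at 0.135 to 0.209 (median 0.185). These 3 ranges did not overlap either, and members of set 4 were lowest for Wif1, Spp2, Deptor, Osr1 and Enpp2.

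In set 1 UMIs, Spp2 stood at 1016 CPM in members and 321 in other hepatoma cells, Wif1 at 458 and 93.2, and Slco1b2 at 159 and 25.4. Deptor stood at 193 and 65.7 CPM, Enpp2 at 173 and 38.2, and Osr1 at 142 and 38.4. Spp2 supplied 47.4% of the programme UMIs of members and was the highest programme gene in 74.8% of them, followed by Wif1 with 21.4% of the UMIs and 13.9% of the cells. After each cell was thinned to 5000 UMIs, Slco1b2 had a UMI in 43.8% of members (72.3% unthinned), 8.96% of other hepatoma cells (19%) and 1.60% of the 125 immune-gated cells deep enough (0.783% unthinned). Spp2 had a UMI in 97.1%, 58.3% and 22.4% of thinned cells, so its UMIs were not confined to members. The part of free RNA in these shares was not tested. Thinned members held a UMI of a median of 4 of the 6 genes, and 4.04% held all 6. Thinned other hepatoma cells held a median of 1, and 23.8% held none.

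The 6 genes tended to be high in the same cells. Each gene was left out of the score in turn and compared between the cells chosen with the other 5 genes and the rest. Wif1 was at 389.6 CPM in the cells chosen without it and 108 in the rest, a ratio of 3.58 (95% counting interval of the log2 ratio 1.80 to 1.88), the highest of the 6. Slco1b2 followed with a ratio of 3.25, then Osr1 with 2.96, Enpp2 with 2.90, Spp2 with 2.66 and Deptor with 2.48. Every one of the 6 was higher in all 6 sets, and the median log2 ratio was 1.55 (1.49 to 1.61). The 6 genes were grouped on these same cells, so this describes how closely they go together. Ratios throughout are of CPM plus 1, and intervals are exact 95% intervals that cover counting error only.

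**Figure D2:**
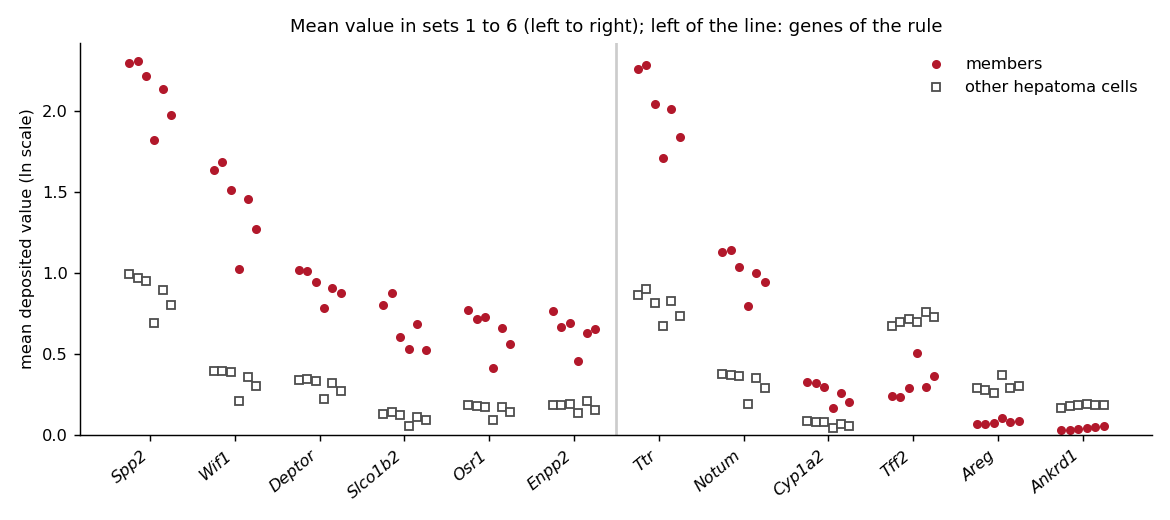
Mean deposited value (natural log scale, y axis) in members (filled) and other hepatoma cells (open) for 12 genes, with sets 1 to 6 from left to right within each gene. Genes left of the line chose the members. The classes do not overlap over the sets for any of the 12 genes, with Ttr between 1.71 and 2.28 in members and Tff2 between 0.239 and 0.505.

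Beyond the programme, the 15 genes with the highest ratios in members included the plasma protein genes Ttr and Bche, the enzyme genes Cyp1a2 and Gstm2, and the Wnt inhibitor gene Notum. A gene was called when its ratio in set 1 was at least 1.5 in either direction and its mean value differed in the same direction in all 6 sets. Of 1869 genes with at least 20 UMIs outside the 17 rule genes, 122 were called higher in members (6.53%) and 560 lower (30.0%), and the median log2 ratio of all tested genes was -0.32. With the other hepatoma cells weighted to the members' depth, 112 were called higher and 409 lower, and the median was -0.20. Agreement over the sets was common: 481 of the 1869 genes were higher and 864 lower in all 6 sets. In 341 genes (18.2%) the lowest set of members was above the highest set of other hepatoma cells, and in 565 (30.2%) the highest set of members was below the lowest of the others.

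Ttr, the carrier of thyroid hormone and retinol-binding protein, was the most abundant of the 15 highest genes. Its mean value was 1.71 to 2.28 in members (median 2.03) and 0.673 to 0.903 in the others (median 0.821), and its set 1 level was 1139 against 345 CPM, a ratio of 3.30 (3.25 to 3.35). Notum, a secreted enzyme that inactivates Wnt proteins by removing their lipid, had values of 0.795 to 1.14 (median 1.02) against 0.192 to 0.377 (median 0.359). It stood at 260.5 against 93.4 CPM, a ratio of 2.77 (2.69 to 2.85). Cyp1a2, a pericentral drug-metabolising enzyme, had values of 0.170 to 0.330 (median 0.277) against 0.0470 to 0.0865 (median 0.0758), with 62.5 and 19.02 CPM. Gstm2, a glutathione transferase, had values of 0.615 to 0.994 (median 0.799) against 0.256 to 0.373 (median 0.352), with 197 and 66.2 CPM. For these 4 genes the lowest set of members was above the highest set of other hepatoma cells.

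Bche, the plasma cholinesterase, was 2.78 times higher at 173 against 61.6 CPM, and Ifitm1, an interferon-inducible membrane protein, 4.10 times higher at 82.3 against 19.3 CPM. Maged2, a MAGE family gene, was at 101 against 28.5 CPM. The prolactin receptor gene Prlr was at 27.4 against 7.43 CPM, the fucosyltransferase gene Fut2 at 24.4 against 6.94, the aldo-keto reductase gene Akr1b7 at 34.5 against 11.01, and Fam171b at 38.6 against 11.4. The remaining 4 of the 15 were low in members: Prelp, a matrix proteoglycan, at 13.5 CPM, Homer2, a scaffold protein, at 11.9, 1700049E15Rik at 12.7, and 9530003J23Rik, which had the highest ratio of the 15 (5.23, 4.21 to 6.58), at 8.05 against 0.729. Gstm2 has close paralogs whose reads may be split between copies.

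The 15 lowest genes fell into stromal genes, secreted or structural epithelial genes, and single hepatocyte or immune genes. Tff2, a secreted trefoil peptide, had mean values of 0.239 to 0.505 in members (median 0.295) against 0.675 to 0.757 (median 0.707), and 34.6 against 251 CPM. Its relative Tff1 was at 6.35 against 68.3 CPM. The EGF receptor ligand gene Areg had values of 0.0677 to 0.107 (median 0.0776) against 0.258 to 0.369 (median 0.291), and 8.23 against 75.3 CPM. Ankrd1, a nuclear ankyrin repeat protein, had values of 0.0335 to 0.0556 (median 0.0439) against 0.169 to 0.191 (median 0.184), and 4.28 against 32.3 CPM. The cornified envelope gene Sprr1b was at 1.15 against 15.4 CPM. Members were below other hepatoma cells in every set for Tff2, Areg and Ankrd1.

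The collagen genes Col1a2 (3.10 against 55.7 CPM), Col1a1 (2.10 against 32.5) and Col3a1 (2.88 against 39.7) had the 3 lowest ratios, and Postn, Serpinh1 and Mgp, all matrix or collagen-chaperone genes, were also among the 15. The summed level of the 8 fibroblast markers was 19.02 CPM in members and 180.7 in other hepatoma cells, where single cells reached 91290 CPM, and 6 of the 8 were called lower. The 11 macrophage markers in the table summed to 101 against 217 CPM. None of the fibroblast or macrophage markers was at 0 in either class. When set 1 cells with 500 CPM or more of other lineages' markers were left out, a restriction chosen after seeing the data that removed 3.13% of members and 19.1% of other hepatoma cells, 115 of 1773 genes were called higher (6.49%) and 271 lower (15.3%). Of these, 113 and 268 had also been called with all cells. With the most hypoxic 15% of hepatoma cells left out as well, 91 of 1741 were called higher (5.23%) and 247 lower (14.2%), 89 and 245 of them shared with the calls over all cells. Directions in sets 2 to 6 came from all cells in these counts. The markers summed for the first restriction were those of T, NK and B cells, macrophages, neutrophils, fibroblasts and endothelial cells. The most hypoxic cells were chosen by the mean of Ndrg1, Bnip3, Slc2a1 and Ero1l.

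Under both restrictions Col1a2 was at 3.13 against 3.55 CPM, Col1a1 at 2.15 against 3.02 and Col3a1 at 2.75 against 2.87. Postn and Mgp turned to log2 ratios of 0.15 and 0.091. Col1a2, Col1a1, Col3a1 and Postn, but not Mgp, were among the markers that chose the cells left out. Their change was therefore largely fixed by the restriction. Areg (8.26 against 57.4 CPM) went from a log2 ratio of -3.048 to -2.655. Sprr1b (1.17 against 10.96) went from -2.938 to -2.462, and both shifts were beyond the counting interval. The ratio stayed within its counting interval for Tff1 (6.26 against 68.3 CPM), Tff2 (34.7 against 253), Ankrd1 (4.30 against 30.6), Cyp2a4 (1.51 against 23.5) and Serpina1d (1.06 against 18.3). The last pair belong to gene families with near-identical copies, so their own levels are uncertain. Among the 15 highest genes the log2 ratio of Ttr went from 1.72 to 1.52, that of Notum from 1.47 to 1.24, Cyp1a2 from 1.67 to 1.5, Gstm2 from 1.56 to 1.42 and Ifitm1 from 2.03 to 1.86, each a shift beyond the counting interval.

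**Figure D3:**
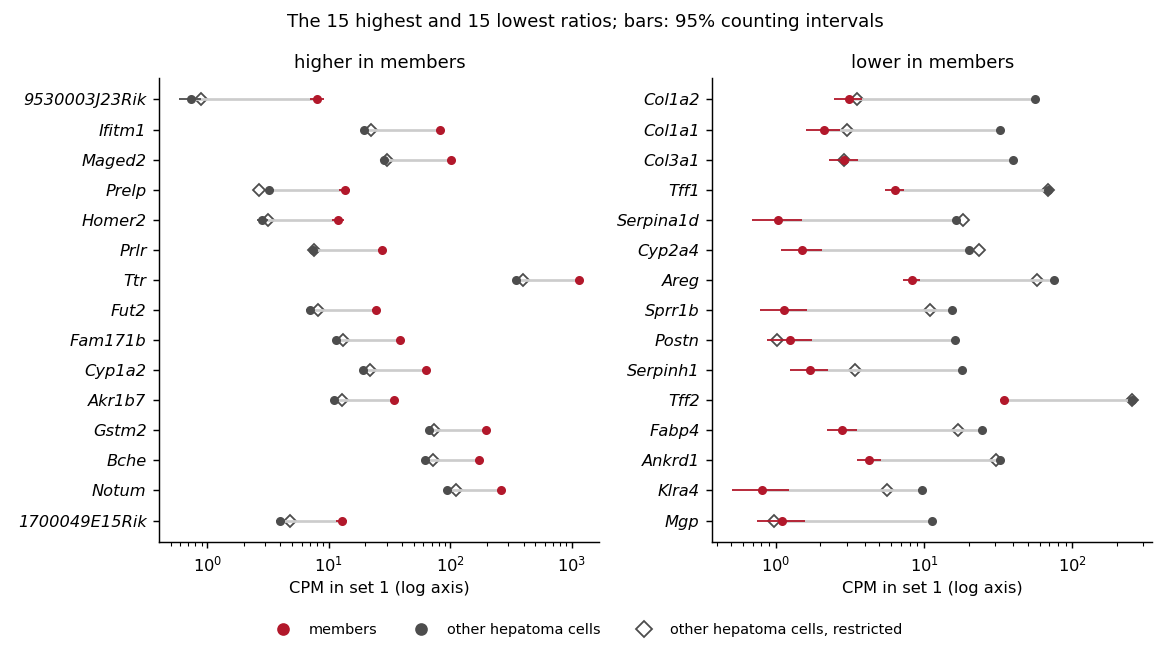
Set 1 levels (x axis, CPM, log axis) of the 15 genes with the highest and the 15 with the lowest ratio in members (red) and other hepatoma cells (grey), with exact 95% counting intervals as bars. Open diamonds give the other hepatoma cells without those rich in other lineages' markers and without the most hypoxic 15%. The diamonds of Col1a2, Col1a1, Col3a1, Postn and Mgp lie beside the members' points, and those of Tff1, Tff2 and Cyp2a4 lie far to the right of them. Col1a2, Col1a1, Col3a1 and Postn were among the markers that chose the cells left out.

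The Wnt pathway list had 16 tested genes, of which 3 were called higher (Notum, Nkd1 and Sp5) and 3 lower. These were 18.8% each way, beside 6.53% and 30.0% of all genes. The list had a median log2 ratio of -0.20 beside -0.32 for all genes. The sign of this median changed under 4 of the 15 alternatives, to 0.14 under both restrictions. Nkd1, an intracellular inhibitor of the pathway, was at 154 against 81.4 CPM, with values of 0.617 to 0.844 (median 0.778) against 0.1996 to 0.368 (median 0.364). Sp5, a transcription factor induced by Wnt, was at 47.4 against 29.4 CPM, and Axin2, a scaffold of the complex that degrades beta-catenin, was at 139.8 against 102 CPM, a ratio of 1.37 that missed the fold. Axin2 values did not overlap over the sets, 0.803 to 0.85 (median 0.831) against 0.366 to 0.563 (median 0.525). The receptor gene Fzd8 was lower at 4.10 against 14.9 CPM, and the secreted antagonist Sfrp2 at 0.185 against 2.82. Under both restrictions Fzd8 had a log2 ratio of -1.52 and Sfrp2 a ratio of -0.066. The pathway target Ccnd1 was at 398 and 384 CPM. Sp5, Axin2 and Ccnd1 were chosen after their values were seen.

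Pericentral liver genes were the list with the largest share called higher, 6 of 17 (35.3%), beside 6.53% of all genes. Only 1 was called lower (5.88%), beside 30.0% of all genes, and the median log2 ratio was 0.36. Under both restrictions the median was 0.14 and 5 of 17 were called higher, beside 5.23% of all genes. Cyp1a2 and Gstm2 are given above. Gstm1, a glutathione transferase, was at 447 against 221 CPM. Glul, glutamine synthetase, was at 404 against 211 CPM, with values of 1.23 to 1.49 (median 1.32) against 0.740 to 0.867 (median 0.842). Slc1a2, a glutamate transporter, was at 107 against 54.8 CPM and Aldh1a1, a retinaldehyde dehydrogenase, at 486 against 315. Aldh1a1 was the gene no longer past the fold under both restrictions, at a log2 ratio of 0.47. Cyp3a11 was the lower gene, at 0.480 against 3.11 CPM. Glul, Slc1a2 and Aldh1a1 were chosen after their values were seen.

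Of 16 periportal genes none was called higher and 8 were called lower (50%), beside 6.53% and 30.0% of all genes, with a median of -0.65. Under both restrictions 4 of 15 were called lower, beside 14.2% of all genes, with a median of -0.38. The 4 with the largest absolute log2 ratios were Dpt, Serpina1c, Ctsc and Arg1, all below 4 CPM in members, and Dpt, Ctsc and Arg1 are also made by stromal or immune cells. Under both restrictions Arg1 was at 1.40 against 1.52 CPM and Serpina1c at 1.17 against 10.3. Of 33 organic anion and drug handling genes 5 were called higher and 5 lower, 15.2% each way beside 6.53% and 30.0% of all genes (median -0.25, positive in 1 alternative). Gsta3 (428 against 241 CPM), Akr1c6 (224 against 129.9) and Nqo1 (35.8 against 21.96), chosen after their values were seen, were on the higher side with Akr1b7. No other organic anion transporter of the list was called higher, and the prostaglandin transporter gene Slco2a1, also chosen after its values were seen, was at 11.04 against 27.6 CPM.

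Among 73 secreted liver proteins 4 were called higher (Ttr, Cfi, Agt and Serping1) and 26 lower, with a median of -0.69. These were 5.48% and 35.6%, near the 6.53% and 30.0% of all genes. Under both restrictions 4 of 72 were called higher and 24 lower, with a median of -0.70, beside 5.23% and 14.2% of all genes. Agt, angiotensinogen, was at 309 against 157 CPM, the complement regulator Cfi at 173 against 74.2, and Serping1, the complement inhibitor, at 44.7 against 28.8, all chosen after their values were seen. Apoh was at 5.61 against 36.2 CPM, Serpina1a at 2.25 against 15.7 and Serpina1c at 1.14 against 9.07. The rule kept cells rich in Serpina1b, Apoa1, Apoa2 and Fabp1 out of the members. Without that bound the log2 ratios of Serpina1d, Serpina1a and Serpina1c were -2.93, -2.33 and -2.23, that of Apoh -1.27, and the list median -0.46. The median was positive, at 0.089, when cells with a cycle gene UMI were left out, which left 49 members.

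Of 21 fetal liver and progenitor genes 0 were called higher and 7 lower (median -0.47), and these 33.3% were near the 30.0% of all genes called lower. Spp1, osteopontin, was at 38.0 against 201 CPM and Krt19, a biliary keratin, at 70.7 against 209. Spp1 values were 0.246 to 0.420 (median 0.299) in members and 0.647 to 0.753 (median 0.671) in the others, with no overlap. Of 19 developmental transcription factors 2 were called higher and 3 lower, 10.5% and 15.8% beside 6.53% and 30.0% of all genes. The higher ones were Nfib (139.8 against 76.3 CPM) and Nr5a2, a regulator of bile acid genes (63.7 against 37.1). The median was -0.18 and changed sign under 3 of the 15 alternatives. Of the 2 tested genes of lysophosphatidic acid metabolism, Plpp3, which degrades the product of Enpp2, was at 66.5 against 50.9 CPM and Enpp3 at 0.665 against 2.39. The receptors of this lipid were not analysed here.

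Among 15 mTOR and amino acid stress genes 1 was called higher and 6 lower (median -0.57), 6.67% and 40% beside 6.53% and 30.0% of all genes. Under both restrictions 1 was called higher and 4 lower, with a median of -0.23. Without the most hypoxic 15% alone the median was -0.21. The higher gene was Cbs, of homocysteine metabolism, at 17.9 against 7.31 CPM. Nupr1, Ddit3 and Slc7a11, induced by stress, were at 9.38 against 41.2, 46.8 against 107 and 20.8 against 43.6 CPM. Their highest log2 ratios over the alternatives were -1.69, -0.39 and -0.91, that of Ddit3 short of the fold. Of 14 sterol and lipid genes 3 were higher, among them Acot1 and Acot2, and 3 lower, 21.4% each way. Their median was 0.086 and turned negative in 2 alternatives. Acot1 and Acot2 are acyl-CoA thioesterases with near-identical sequence. Fabp4, a fatty acid carrier of fat cells and macrophages, was at 2.81 against 24.5 CPM, and at 2.75 against 16.98 under both restrictions.

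Of 44 matrix and adhesion genes 26 were called lower (59.1%) and 2 higher, beside 30.0% and 6.53% of all genes, with a median of -1.001. Under both restrictions 7 of 43 were lower and 1 higher, with a median of -0.064, beside 14.2% of all genes called lower. Col1a1, Col1a2, Col3a1, Postn, Dcn and Lum of this list were among the markers that chose the cells left out. The restricted median is therefore not independent of the restriction. The higher gene that held was Tgfbi, a secreted matrix protein induced by TGF-beta, at 1112 against 452 CPM. Ccn1, an angiogenic matrix protein, was at 392 against 254 CPM and at a log2 ratio of 0.50 under both restrictions. Tgfbi and Ccn1 were chosen after their values were seen.

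Hypoxia genes were lower in members. Of 18 genes 10 were called lower (55.6%) and 1 higher (5.56%), beside 30.0% and 6.53% of all genes, with a median of -1.13. The higher gene was Ppp1r3c, a glycogen-targeting phosphatase subunit, named after its value was seen. Under both restrictions 8 were called lower, beside 14.2% of all genes, with a median of -0.56. Ndrg1, Bnip3, Slc2a1 and Ero1l chose the hypoxic cells left out. Restricted values of these genes and of the list are therefore not independent of that choice. Ndrg1 was at 169 against 655 CPM, Bnip3 at 162 against 565, the glucose transporter gene Slc2a1 at 44.9 against 147, and Lox at 0.332 against 5.43. Their highest log2 ratios over the alternatives were -0.99, -1.09, -0.90 and, short of the fold, -0.21 for Lox. The mean of Ndrg1, Bnip3, Slc2a1 and Ero1l was 0.591 to 0.893 in members over the 6 sets and 1.02 to 1.09 in the others, with no overlap. Between 0.518% and 4.94% of members were in the top 15% of their set for it. After thinning to 5000 UMIs, 48.2% of members (95% exact binomial interval 44.9 to 51.4) and 69.7% of other hepatoma cells (68.5 to 71.0) held an Ndrg1 UMI, and 20.3% against 44.2% an Slc2a1 UMI.

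Most cell cycle genes differed by less than the fold, while over all genes 6.53% were called higher and 30.0% lower. Of 44 G2 and M phase genes none passed the fold in either direction (median 0.28), and of 20 S phase genes Dscc1 and Dtl, which act in replication, were called higher and none lower (median 0.33). The G2 and M phase median turned negative when cells with a UMI of a cycle gene were left out, which left 49 members. Mki67 was at 152 against 106 CPM. After thinning, 47.2% of members (44.0 to 50.5) and 41.2% of other hepatoma cells (39.9 to 42.6) held at least 2 UMIs of Mki67, Top2a, Ube2c, Cenpf and Cdk1, against 84.4% and 68.5% unthinned. The mean of these genes was higher in members in all 6 sets, by 0.031 to 0.125. Mitochondrial transcripts were also higher, summing to 21285 against 16183 CPM for the 9 genes measured, with mt-Nd2 and mt-Nd3 past the fold and a median of 0.41. Depth, hypoxia genes, mitochondrial transcripts and other lineages' markers differed between the classes together with the genes above, and their part in those differences was not tested beyond the weighting and the restrictions given.

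Of 26 interferon and antigen presentation genes 5 were called higher and 5 lower (median 0.12, negative in 3 of the 15 alternatives). These were 19.2% each way, beside 6.53% and 30.0% of all genes. The MHC class II genes H2-Eb1 (288 against 154 CPM), H2-Aa (225 against 129), H2-Ab1 (274 against 176) and their chaperone gene Cd74 (546 against 357) were higher, as was the interferon-gamma inducible Iigp1 (353 against 224). The class I gene H2-K1 was lower at 40.4 against 113 CPM, as was the interferon-inducible GTPase gene Gbp5 at 7.75 against 17.03. Over the alternatives the log2 ratio lay between -3.35 and -0.16 for H2-K1, the latter short of the fold, and between -2.38 and -0.79 for Gbp5. It lay between 0.045 and 0.77 for H2-Ab1, 0.16 and 0.91 for H2-Aa, 0.64 and 0.95 for H2-Eb1, and 0.41 and 0.66 for Cd74. With both restrictions 3 of the 26 genes were called higher and 1 lower, beside 5.23% and 14.2% of all genes. Under both restrictions H2-Eb1, H2-Aa and H2-Ab1 had log2 ratios of 0.75, 0.75 and 0.61, and Cd74 had 0.51, below the fold. H2-Ab1 and Cd74 are also dendritic cell markers. The 8 dendritic markers summed to 823.5 CPM in members, 537 in other hepatoma cells and 1064.5 in immune-gated cells, and the 6 without this pair to 3.10, 3.81 and 72.6 CPM. Iigp1 was named after its values were seen.

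The summed markers of the other cell types were lower in members than in other hepatoma cells, except for dendritic markers, whose sums are given above. T cell markers summed to 34.0 CPM against 45.1 in other hepatoma cells and 5796 in immune-gated cells, and 1 of 8 tested was called lower (Thy1, median -0.32). NK cell markers summed to 15.2, 28.4 and 2507 CPM, with Klrb1c at 0 UMIs in members, which allows up to 0.111 CPM, and Klra4 called lower (median -0.27). Of 9 macrophage and monocyte markers 6 were lower (median -1.13, and 0.050 under both restrictions), led by the complement genes C1qa, C1qc and C1qb. Of 5 neutrophil markers 3 were lower (median -0.59), and of 5 B and plasma cell markers none was called (median -0.42). Fibroblast markers had a median of -2.63, and -0.091 under both restrictions. The fibroblast and macrophage markers themselves chose the cells left out, so their restricted medians were largely fixed by the restriction. Over all genes 6.53% were called higher and 30.0% lower. Dendritic cell markers, which include H2-Ab1 and Cd74, had 2 of 6 higher and 1 lower (median 0.085). The 3 endothelial markers summed to 1.48 against 2.45 CPM with Kdr lower, and no erythroid marker was analysed here.

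**Figure D4:**
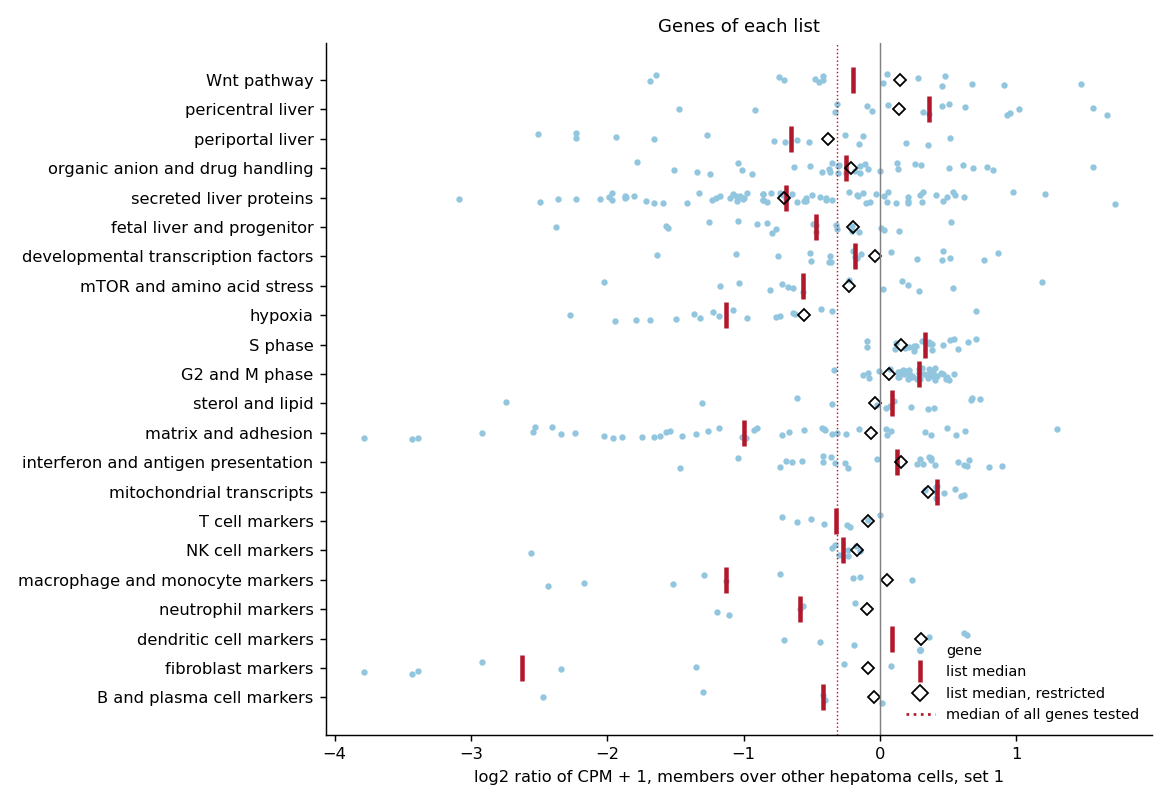
Log2 ratio of CPM plus 1 between members and other hepatoma cells in set 1 (x axis) for each tested gene of 22 lists (points), with the list median (red bar) and its value without cells rich in other lineages' markers and the most hypoxic 15% (diamond). The dotted line is the median of all tested genes, -0.32. Pericentral liver has a median of 0.36, hypoxia -1.13 and fibroblast markers -2.63, the last moving to -0.091. Fibroblast markers, and Ndrg1, Bnip3, Slc2a1 and Ero1l of the hypoxia list, were among the genes that chose the cells left out.

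Levels along the score are a description, since the genes were picked for differing at its top. The hepatoma cells of set 1 were divided into 10 bins of equal size by the score, with bin 1 at a score of 0 and a median of 3450 UMIs per cell. Ttr was at 87.9 CPM in bin 1, 73.7 in bin 2, 208 in bin 5 and 1242 in bin 10. Notum was at 25.4, 17.6, 58.2 and 258 CPM in the same bins. Cyp1a2 lay between 4.11 and 7.71 CPM in bins 1 to 6 and was at 20.6 in bin 7 and 67.0 in bin 10. Tff2 was highest in bin 2, at 430.2 CPM, with 278 in bin 1, 331 in bin 5 and 32.5 in bin 10. Areg was highest in bin 3, at 163 CPM, with 112 in bin 1 and 9.05 in bin 10, and Ndrg1 was highest in bin 2, at 1221, with 1136 in bin 1 and 175 in bin 10. Afp was highest in bin 5, at 6111 CPM, and stood at 4031 in bin 10, while Alb was highest in bin 10, at 3912. The median depth was 13348 UMIs in bin 5 and 22374 in bin 10, so depth moved with the score, and its part in these levels was not tested.

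**Figure D5:**
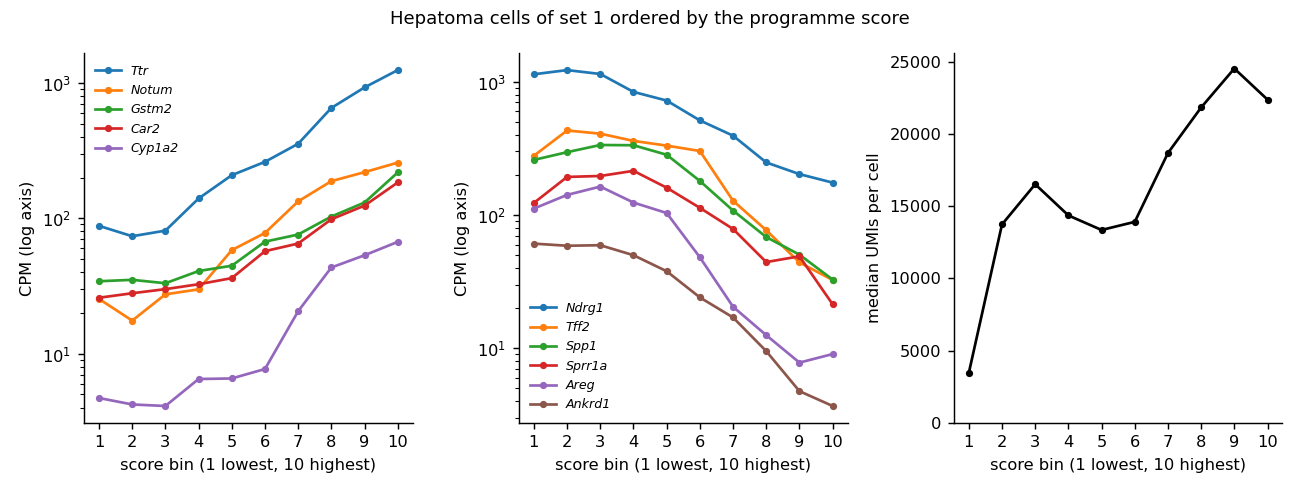
Set 1 hepatoma cells in 10 bins of the programme score (x axis): CPM of genes higher in members (left, log axis), CPM of genes lower in members (middle, log axis) and median UMIs per cell (right). Ttr goes from 87.9 CPM in bin 1 to 1242 in bin 10, Tff2 from 278 to 32.5, and the median depth from 3450 to 22374 UMIs.

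Hepatocyte-like hepatoma cells, those at or above the bound for Fabp1, Apoa2, Apoa1 and Serpina1b, differed from members in both directions. The rule fixes that the classes do not share cells, and it sets them apart by hepatocyte genes. Lower levels of Serpina1 family and other hepatocyte genes in members are therefore not independent of the rule. Of 1573 tested genes 251 were called higher in members (16%) and 503 lower (32.0%). Notum was at 260.5 against 55.6 CPM, a ratio of 4.62 (4.35 to 4.91), Fam171b at 38.6 against 6.78, the serpin gene Serpinb11 at 41.5 against 7.50, and Gabrp, a subunit of a GABA receptor, at 25.9 against 5.65. Ifitm1, Maged2, Fut2 and Prelp completed the 8 highest. The 8 lowest were liver-specific: Cyp2a4, Serpina1d, Serpina1a, Serpina1c, Apoh, the plasminogen gene Plg, the antithrombin gene Serpinc1 and Itih3. Apoh was at 5.61 against 168 CPM and Plg at 1.33 against 42.9. The hepatocyte-like cells had a median of 13138 UMIs.

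The Ppbp state, hepatoma cells outside the members in the top 15% of their set for the chemokine gene Ppbp, the annexin gene Anxa1 and Tff2, differed from members in both directions, with Ttr at the highest ratio and Col1a2, Tff1, Col3a1 and Col1a1 at the lowest. Between 1.14% (set 1) and 9.01% (set 4) of members were themselves in that top 15%. Of 1610 tested genes 210 were called higher in members (13%) and 530 lower (32.9%). Ttr was at 1139 against 93.7 CPM, a ratio of 12.1 (11.6 to 12.6), Prlr at 27.4 against 1.86, Cyp1a2 at 62.5 against 5.57, and Akr1b7 at 34.5 against 3.12. Car2, a carbonic anhydrase, was at 161 against 23.3 CPM, and Ifitm1 and Bbox1, an enzyme of carnitine synthesis, were also among the 8 highest. Tff1 was at 6.35 against 225 CPM. The other 7 of the 8 lowest were the stromal genes Col1a2, Col3a1, Col1a1, Postn, Serpinh1, Dpt and Dcn. In the whole of the other hepatoma cells Tff2 was at 251 CPM, Anxa1 at 49.9 and Ppbp at 15.5, against 34.6, 17.6 and 10.6 in members. Ppbp itself was lower in 3 of the 6 sets and higher in 3. With cells rich in other lineages' markers left out, 309 genes were called lower than in the Ppbp state, against 530. Under that restriction Col1a2 was at 3.12 against 3.08 CPM, Col3a1 at 2.74 against 3.44 and Col1a1 at 2.14 against 3.48. Tff1 was at 6.24 against 231 CPM, Dcn at 4.28 against 35.5 and Ttr at 1142 against 97.2. Col1a2, Col3a1, Col1a1 and Dcn were among the markers that chose the cells left out, so their restricted levels are not independent of it.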

How the data were processed

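Single cells of Hepa1-6 tumours were measured. Per the series' design text and the submitters' processing notes, reads were aligned with STAR 2.7.2b, cells were selected with barcodeRanks of DropletUtils and UMIs were counted with PISA. The notes name both GRCh38 and mm10, so the build behind the table is not settled here. The authors deposited a single table of 2000 genes and 53528 cells, with values on the natural log scale. In set 1 each deposited natural log value equals ln of 1 plus UMIs per 10000, and all nonzero values gave whole UMIs within 0.01 (1001 to 261833 per cell, 15.0% of them in the table's genes). Sets 2 to 6 were changed by a step that is not given in the sources used here.

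Cells were classed by the rule stated in the report. The members and the gene lists were chosen with earlier results of these data known. Doublets called by Scrublet in scanpy 1.11.5 at an expected rate of 6% (91 of 9370 cells of set 1, 6 of them among 965 members) were left out of set 1 values. UMIs were summed per class, and ratios of CPM plus 1 were taken with exact conditional Poisson 95% intervals (scipy 1.17.1, numpy 2.4.6, python 3.11.15), tested on simulated data. PCR and free RNA are not covered by such intervals. Genes were called at a fold of 1.5 with the same direction in 6 sets, with at least 20 UMIs and without the 17 rule genes (and without Ppbp, Anxa1 and Tff2 against the Ppbp state). Cells were thinned to 5000 UMIs for shares, which left out 19 of 959 members and 1067 of 6268 other hepatoma cells.

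Genes named were the programme genes, the 15 highest and 15 lowest called genes against other hepatoma cells, up to 4 per list by absolute log2 ratio, and 8 in each direction in the other comparisons. Additional names are said to have been chosen after their values were seen. Genes whose means over sets are printed were also picked with their ratios known. Alternatives varied the share, bound, score, thresholds, depth weighting, doublets, pseudocount, filter, averaging, cycling cells and thinning. The 3 alternatives that leave out cells rich in other lineages' markers, hypoxic cells or both were added after the data were seen. No column of per-sample values was left unused.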

Additional observations from a re-analysis of the deposited data

How the results depend on the processing

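Of 1620 values of 109 named genes under the alternatives, 1034 lay within the counting interval, 574 moved beyond it and 12, all of called genes, changed sign. A further 7 values of 4 genes that were not called (Adh1, Ighm, Cdh5 and Plvap) crossed 0 and are counted by their size. Of 327 list medians, 227 stayed, 80 moved and 20 changed sign. The 122 genes higher than in other hepatoma cells became 197 without cycling cells, a setting that left 49 members and 970 others. The 560 lower genes became 372 with a hepatoma mean of at least 2, 287 with a pseudocount of 5 CPM, 271 without cells rich in other lineages and 247 without these and hypoxic cells. The pericentral median of 0.36 became 1.17 without cycling cells, 0.20 without hypoxic cells and 0.14 without hypoxic and other-lineage cells. Against hepatocyte-like cells the 251 higher genes became 145 without cycling cells, and the 503 lower became 335 with a pseudocount of 5, 239 without cycling cells, 333 without other lineages and 322 without these and hypoxic cells. Against the Ppbp state the 530 lower genes became 329, 333, 309 and 290 in the same order. The held-out median of 1.55 became 1.46 for the top 10%, 1.41 ranked by thinned UMIs, 1.49 with depth weighting, 1.47 with a pseudocount of 5, 1.74 as a mean over cells, 1.89 without cycling cells, 1.38 without hypoxic cells and 1.35 without these and other lineages. The cycling share of 47.2% was 29.8% at 2000 UMIs. Medians that changed sign were those of the Wnt pathway (0.046 with a hepatoma mean of at least 2, 0.30 without cycling cells, 0.13 without other lineages, 0.14 without these and hypoxic cells), drug handling (0.30 without cycling cells), secreted proteins (0.089 without cycling cells), transcription factors (0.070 with a hepatoma mean of at least 2, 0.72 without cycling cells, 0.014 without other lineages), G2 and M phase (-0.34 without cycling cells), sterol and lipid (-0.0020 without hypoxic cells, -0.040 without these and other lineages), interferon (-0.24 as a mean over cells, -0.37 without cycling cells, -0.026 without hypoxic cells), macrophage markers (0.0044 without other lineages, 0.050 without these and hypoxic cells) and dendritic markers (-0.51 for the top 10%, -0.0085 for the top 20%, -1.21 as a mean over cells). Called genes that changed sign without other lineages, and without these and hypoxic cells, were Postn (0.11 and 0.15), Mgp (0.16 and 0.091), Meg3 (0.081 and 0.077), Mrc1 (0.33 and 0.30) and Csf3r (0.027 and 0.069), and without cycling cells Bex1 (0.52) and Dscc1 (-0.88). Postn, Mrc1, Csf3r and the macrophage markers were among the markers that chose the other-lineage cells left out. Apart from this and the smaller classes that each restriction leaves, the cause was not tested. No paired analysis was possible because the cell sets carry no group or replicate number. Members were deeper than the cells they were compared with, levels rest on set 1 alone, and the table holds 2000 selected genes.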

Other observations

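Other genes stood out once cells rich in other lineages' markers and the most hypoxic cells of set 1 were left out, a comparison chosen after the data were seen. On the higher side were Tgfbr3, a co-receptor of TGF-beta, at 31.8 against 11.9 CPM, Gria3, a glutamate receptor subunit, at 24.5 against 9.12, Nrep at 26.2 against 10.2, Car2 at 160.1 against 63.9, and the serpin gene Serpinb11 at 42.2 against 16.9. On the lower side were the trefoil gene Tff3 at 0.717 against 6.96 CPM, the laminin gene Lamb3 at 9.02 against 40.2, the protease inhibitor gene Slpi at 13.3 against 57.6, the cornified envelope gene Sprr1a at 24.7 against 121, Mettl7b at 1.21 against 11.95 and the urea transporter gene Slc14a1 at 1.32 against 9.88. All of these had also been called with all cells, 6 sets agreeing in direction.

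The share of programme-high cells depended on where the threshold was set. With the set 1 threshold used for every set, without the bound on hepatocyte genes, 15% of hepatoma cells of set 1 (95% exact binomial interval 14.2 to 15.8) lay above it, 14.8% of set 2 (13.8 to 15.8), 10.1% of set 3 (9.49 to 10.8), 3.58% of set 4 (3.01 to 4.22), 9.16% of set 5 (8.43 to 9.94) and 5.69% of set 6 (5.03 to 6.42). The sets have no known group, and their values were not put on the same scale.

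The 128 top-scoring cells of set 1 that the bound removed were chosen by the same score, so their programme levels are a description. Slco1b2 was at 154 CPM (141 to 168) against 159 in members, Wif1 at 401 (379.9 to 424) against 458, Spp2 at 1249 (1211 to 1287.5) against 1016, Deptor at 183 against 193, Osr1 at 135 against 142 and Enpp2 at 140.4 (128 to 154) against 173. Ttr was at 1292 CPM (1254 to 1332) against 1139. Notum was at 148 (135 to 162) against 260.5, and Fabp1, which the bound used, at 566 against 6.17.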
